A study of Homo sapiens with 8 samples.

Results

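IGFBP7 encodes a secreted protein, and its gene held 4 start sites of capped nascent RNA that were deposited for senescent cells, IMR90 human lung fibroblasts at the end of their replicative life, and 0 that were deposited for proliferating cells. The sites were chosen by their presence in 2 deposited lists, which rests on the authors' fold between the states, and by a midpoint that lay in the span of IGFBP7 in GENCODE 44 on hg19, or within 1 kb upstream of it. They were 4 of 849 sites in the list of senescent cells (0.471%) and 0 of 400 in the list of proliferating cells, so 4 of 1249 in all. The lists are called senescent-only and proliferating-only after their names. Since that presence chose the gene, the counts, folds and reads of its sites are a description and were not tested.

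The series followed nascent transcription by run-on assays, in which engaged RNA polymerases extend their transcripts with biotin-labelled bases in permeabilized cells. In PRO-cap, transcripts with a cap are kept and read from the 5′ end, so that reads mark starts of transcription, and PRO-seq maps the polymerases themselves. Senescent cells were at population doubling 76 (PRO-cap replicate 1 and the PRO-seq library) or 67 (PRO-cap replicates A and B), and proliferating cells at 23 (PRO-cap replicate 1), 26 (PRO-cap replicates A and B) or 20 (PRO-seq). All 8 samples are of 1 untreated line, grown at reduced oxygen; senescence came from serial passage alone, and p16 expression and β-galactosidase were its markers in the labels. Nothing in the labels names separate donors, so no value here speaks for fibroblasts of other people. Each list was also deposited, with identical content, for replicate 1 of a PRO-cap group. Which libraries the folds rest on is not given, so replicates A and B may have no part in them. The lists hold 1 fold per site and no value per library, so no spread between cultures can be given, PRO-seq values were not analysed here, and in bulk cultures fewer cells using a start and less RNA per cell cannot be told apart.

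IGFBP7 binds insulin-like growth factors through the domain that names its family, but with lower affinity than the classical members, and it also binds insulin, heparin and type IV collagen. The protein joins that domain to a Kazal-type and an immunoglobulin-like domain and is deposited in the matrix around fibroblasts and vessels. It is counted among the factors that senescent cells secrete and has been described as a secreted mediator of growth arrest in melanocytes carrying an activated BRAF oncogene. The canonical start of a gene lies at its 5′ end, while a start inside an intron can belong to a shorter transcript, an enhancer RNA or an antisense RNA. The lists alone do not tell these apart.

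The 4 sites are numbered in the direction of transcription, which runs from high to low coordinates because IGFBP7 is on the minus strand. Their sequences are shown because the sites have no annotated start, so the bases around them are what identifies them. Each run is the hg19 reference along the strand from which IGFBP7 is transcribed, 5′ to 3′, and capitals mark TATA box letters on either strand. Sites 1 and 2 share 146 of their 150 bases and are given as 1 run of 154 bases. The positions are chr4:57919801-57919954 for sites 1 and 2, chr4:57912878-57913027 for site 3 and chr4:57901396-57901545 for site 4. All runs are printed along the minus strand, which does not assign a strand to the sites themselves.
Sites 1 and 2: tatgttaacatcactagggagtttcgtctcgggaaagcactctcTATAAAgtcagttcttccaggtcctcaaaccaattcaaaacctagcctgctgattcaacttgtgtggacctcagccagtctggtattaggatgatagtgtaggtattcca
Site 3: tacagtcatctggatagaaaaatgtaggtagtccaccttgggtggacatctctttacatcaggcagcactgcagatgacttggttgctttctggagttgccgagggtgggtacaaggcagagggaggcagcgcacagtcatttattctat
Site 4: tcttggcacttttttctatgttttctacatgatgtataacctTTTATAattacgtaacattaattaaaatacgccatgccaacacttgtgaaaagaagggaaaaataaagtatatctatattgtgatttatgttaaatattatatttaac

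All 4 sites lay in introns and past the midpoint of the gene, far from its 5′ end. IGFBP7 spans 57896939 to 57976551 of chromosome 4, a length of 79.6 kb, and its canonical transcript IGFBP7-201 has 5 exons. The first exon and the remaining 4 are parted by an intron of 68.9 kb, which held 3 of the sites. Sites 1 and 2 lay 56.7 kb from the 5′ end, at 71.2% of the gene's length, and site 3 lay 63.6 kb from it, at 79.9%. Site 4 lay 75.1 kb from the 5′ end, at 94.3%, in the second intron of 7.51 kb and 1993 bases before exon 3. No site overlapped an exon. How often sites of the whole senescent-only list lie in introns or late in a gene is not given here. This placement is therefore not shown to be particular to IGFBP7.

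None of the sites matched an annotated start of transcription. IGFBP7 has 1 internal start in the annotation, that of the non-coding transcript IGFBP7-202 at 57931769, inside the first intron. It was the nearest transcript start of any gene to sites 1, 2 and 3, which lay 11.9, 11.9 and 18.8 kb further along the gene. For site 4 the nearest start belonged to a transcript of POLR2B, which encodes a core subunit of RNA polymerase II and runs toward IGFBP7 from the other side, 11.8 kb away. The count of sites within 1 kb of any annotated start was 0 of 4. The share of the whole senescent-only list within that distance is not given here, so the count does not set IGFBP7 apart. The antisense gene IGFBP7-AS1, whose span overlaps the first 624 bases of IGFBP7, held 0 sites of either list, as did POLR2B, which overlaps its last 386 bases.

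**Figure D1:**
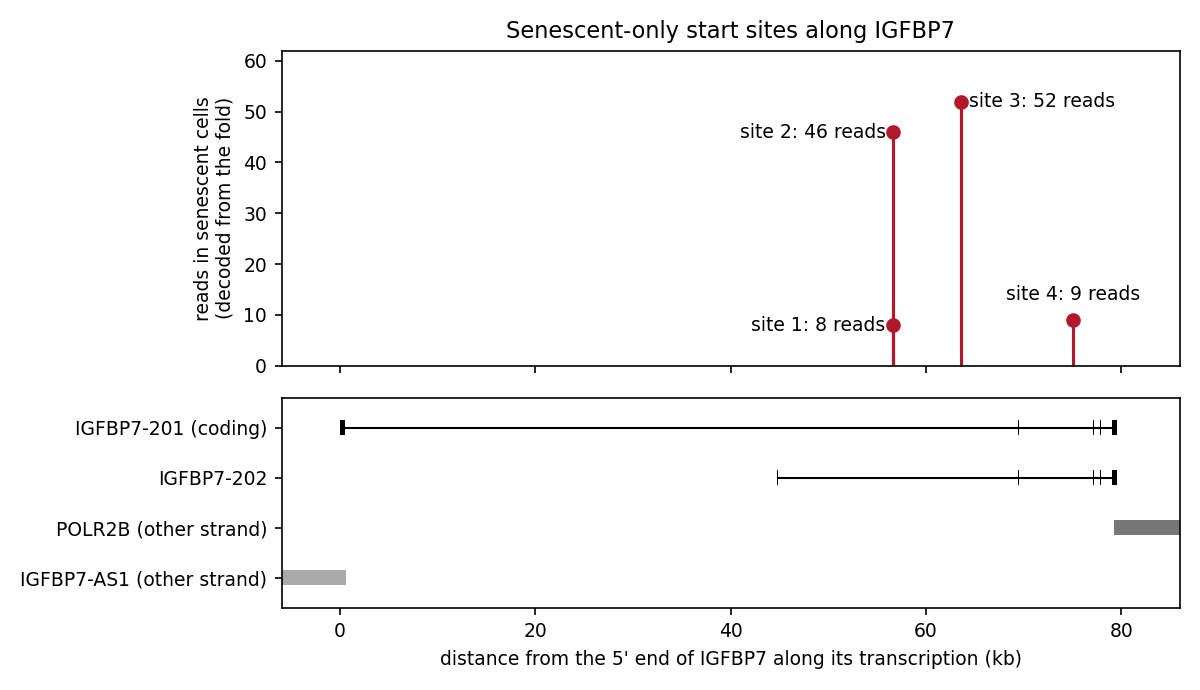
Upper panel: reads in senescent cells (y axis) at each of the 4 senescent-only sites against distance from the 5′ end of IGFBP7 in kb (x axis). Lower panel: exons (bars) of 2 IGFBP7 transcripts and the parts of POLR2B and IGFBP7-AS1 that fall in view; the sites lie from 56.7 to 75.1 kb, past the internal start of IGFBP7-202, and none lies at an exon.

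The sites stood in 3 places. Sites 1 and 2 were 4 bases apart by their midpoints, site 3 followed 6.92 kb further along the gene and site 4 another 11.5 kb on. Joined within 500 bases they formed 3 regions, spread over 18.6 kb. Beyond the gene both lists were empty over long stretches of the chromosome: the nearest senescent-only sites outside lay 2.75 Mb away, in PDGFRA, the gene of a platelet-derived growth factor receptor and a fibroblast marker, and 28.7 Mb away, in ARHGAP24. The nearest proliferating-only sites were 41.1 and 26.5 Mb away, in LDB2 and GPAT3. Thus no site fell just outside the limit of 1 kb that chose the members, and the coding neighbours NOA1, 53.2 kb from IGFBP7, and ADGRL3, 4.09 Mb from it, held 0 sites. The 4 sites of IGFBP7 were 7.84% of the 51 senescent-only sites on chromosome 4, where the proliferating-only list had 11.

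The deposited value of a site is the authors' fold of senescent over proliferating cells. Each fold could be written as a quotient of 2 scaled values, one per state, after 1 was added to both. Each scaled value was a whole multiple of a step, 32.8 units in senescent and 39.4 in proliferating cells. A step is taken here as 1 read, which the labels do not state. The reads given below come from this arithmetic, their intervals are exact Poisson 95% intervals, and a count of 0 is given an upper limit of 3 reads; both cover counting error only. Reads of amplified libraries without molecular identifiers are not independent molecules.

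Site 3 carried the most reads, 52 in senescent cells (38.8 to 68.2) and 0 in proliferating cells, and the highest fold, 1707. Site 2 was close to it in reads, with 46 in senescent cells (33.7 to 61.4) and 1 in proliferating cells (0.0253 to 5.57), but had the lowest fold of the 4, 37.4. The intervals of sites 2 and 3 overlapped widely in senescent cells, so the 2 sites cannot be ordered by their reads. Site 4 had 9 reads in senescent cells (4.12 to 17.1) and 0 in proliferating cells, a fold of 296.3. Site 1 had 8 reads in senescent cells (3.45 to 15.8) and 0 in proliferating cells, a fold of 263.5. Sites 2 and 3 together held 85.2% of the 115 reads in senescent cells, a sum that may count a read of the shared bases of sites 1 and 2 more than once, and the 4 sites held 1 read in proliferating cells.

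**Figure D2:**
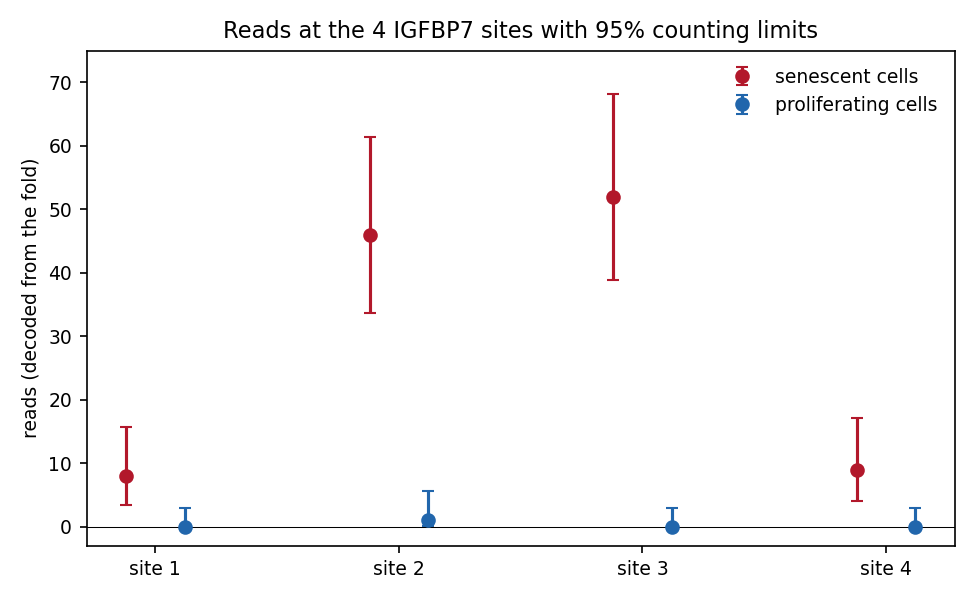
Reads (y axis) at the 4 IGFBP7 sites (x axis) in senescent cells (left of each pair) and proliferating cells (right), with exact Poisson 95% intervals as bars, or a bar up to 3 reads where the count is 0. Sites 2 and 3 stand at 46 and 52 reads in senescent cells, sites 1 and 4 at 8 and 9, and proliferating cells at 0 or 1 read.

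The order by fold was set by 1 read. Site 2, with 46 reads in senescent cells, ranked below site 1 with 8, because a single read in proliferating cells entered its denominator; with 0 such reads its fold would have been 1510.4. Without the added 1, site 2 was 38.3 times higher in senescent cells by scaled reads, with an exact interval of 6.55 to 1547. Where proliferating cells had 0 reads only a lower bound can be given. Set against a floor of 3 reads at the site, and with the reads of senescent cells taken as they stand, scaled reads were at least 14.45-fold higher in senescent cells at site 3, at least 2.5-fold at site 4 and at least 2.22-fold at site 1. With the counting error of senescent cells included as well, the exact 95% interval of the ratio began at 11.3 for site 3, 1.65 for site 4 and 1.42 for site 1, so sites 1 and 4 leave room for a small difference. The sites were listed by this same fold, whose lowest value in the senescent-only list was 10.2. Neither the bounds nor the intervals allow for that choice, so they describe counting error and are not a test.

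Set in the whole senescent-only list, IGFBP7 had 1 site with a high fold and 3 of ordinary rank. By fold, site 3 was number 68 of 849, site 4 number 404, site 1 number 439 and site 2 number 570. The median fold of the IGFBP7 sites was 279.9, beside 296.3 for the list. Both depend on the added 1: with 10 scaled units added in its place they were 30.65 and 37.5, and with 100 they were 7.75 and 8.64. By reads in senescent cells, site 3 was number 289 and site 2 number 332, both above the list's median of 32 reads, while sites 4 and 1 were numbers 782 and 817. Only 68 of the 849 sites (8.01%) had 9 reads or fewer in senescent cells, and sites 1 and 4 were 2 of them. Low counts also make folds coincide: 35 sites of the list, site 4 included, had the same 9 and 0 reads. No read of proliferating cells fell on 3 of the 4 sites, and on 470 of the 849 (55.4%).

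**Figure D3:**
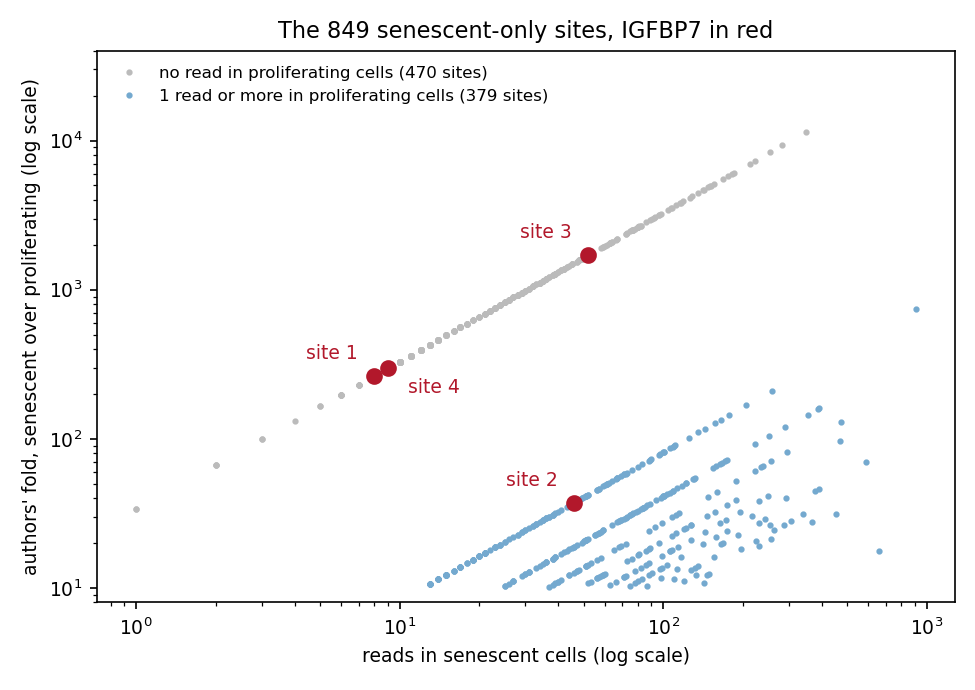
The authors' fold (y axis, log scale) against reads in senescent cells (x axis, log scale) for the 849 senescent-only sites, grey with 0 and blue with 1 or more reads in proliferating cells; the IGFBP7 sites are red. Sites 1, 3 and 4 lie on the line of sites with 0 reads in proliferating cells, while site 2, with 1 such read, lies at a fold of 37.4.

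Sites 1 and 2 had unlike reads for nearly the same bases. The senescent-only list held 4 pairs of sites that share at least 140 bases, and in the other 3 pairs both sites had the same number of reads, 22, 59 and 127 in senescent cells, and the same number in proliferating cells. The 2 such pairs of the proliferating-only list also had equal reads, 34 and 100. In IGFBP7 the pair had 8 and 46 reads, a ratio of 5.75. The windows of sites 1 and 2 differ by 4 bases at each end, and how reads were counted for each site is not given. The strand column holds + for every site of both lists, and counting on different strands was not tested.

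Site 4 stood apart from the others in base composition, and none of the 4 sites had the AP-1 motif. In the 200 bases centred on a site, GC content was 45% at site 1, 44.5% at site 2 and 49.5% at site 3, near the list's median of 45.5%. At site 4 it was 24.5%, the lowest of the 849 sites. The AP-1 motif, to which dimers of FOS and JUN proteins bind, searched as TGACTCA or TGAGTCA on both strands was present at 0 of the 4 sites, while 18.4% of all senescent-only and 10% of all proliferating-only sites held it. In 500 bases it was present at sites 1 and 2, which share 1 match at 57920007 to 57920013, and in 31.7% of the senescent-only list. The letters TTGCNNAA of C/EBP factors, GGAATG of TEAD factors and the NF-kB motif matched at 0 of the 4 sites in 200 bases, where 10.5%, 17.8% and 3.42% of the senescent-only list had a match. No match says only that these letters are not in the window.

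A TATA box, searched as TATAAA or TATATA on both strands, matched at 3 of the 4 sites, while 14.7% of the senescent-only list had a match and 14% of the proliferating-only list did. Sites 1 and 2 share 1 match, so these are 2 separate places. In the run printed for sites 1 and 2, the capitals TATAAA read along the strand of IGFBP7 at 57919905 to 57919910, and the midpoints of sites 1 and 2 lie 28 and 32 bases downstream of them. In the run of site 4, the capitals TTTATA are TATAAA of the other strand, at 57901498 to 57901503, and the midpoint lies 30 bases upstream of them along that strand. A second match of site 4, on the strand of IGFBP7 and outside the printed bases, lies 96 bases upstream of its midpoint. Site 3, with the most reads, had no match in 200 bases. In the senescent-only list, 3.06% of sites had a match centred 25 to 35 bases upstream of the midpoint along the strand of the match, and 2.83% had one at the same distance downstream. In the proliferating-only list the shares were 3.75% and 2%, on 15 and 8 sites. This comparison was chosen after the matches of IGFBP7 were seen.

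IGFBP7 was shorter than most coding genes with as many sites. Of 20163 protein-coding genes, 2.04% held a senescent-only site, 1.09% a proliferating-only site and 0.268% (54 genes) as many senescent-only sites as IGFBP7 or more. Of the 411 genes with a senescent-only site, 228 had 1 site, 34 had more than IGFBP7 and the most was 12. Their median length was 170.3 kb, and that of the 54 genes was 277.9 kb, of which 4 were shorter than IGFBP7. Per 100 kb of gene, IGFBP7 had 5.02 sites, beside a median of 0.924 over the 411 genes, with 26 genes above it. That density counts sites 1 and 2 separately, although they share 146 bases. With regions joined within 500 bases counted in place of sites, 45 genes had as many as IGFBP7 or more. Of 3466 coding genes whose length was within 1.5 times that of IGFBP7, 2.54% held a senescent-only site and 0.26% (9 genes, IGFBP7 among them) as many as IGFBP7 or more. These shares describe where a gene chosen for its sites stands. A site in overlapping genes was counted for each of them, so the counted genes are not all separate loci.

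**Figure D4:**
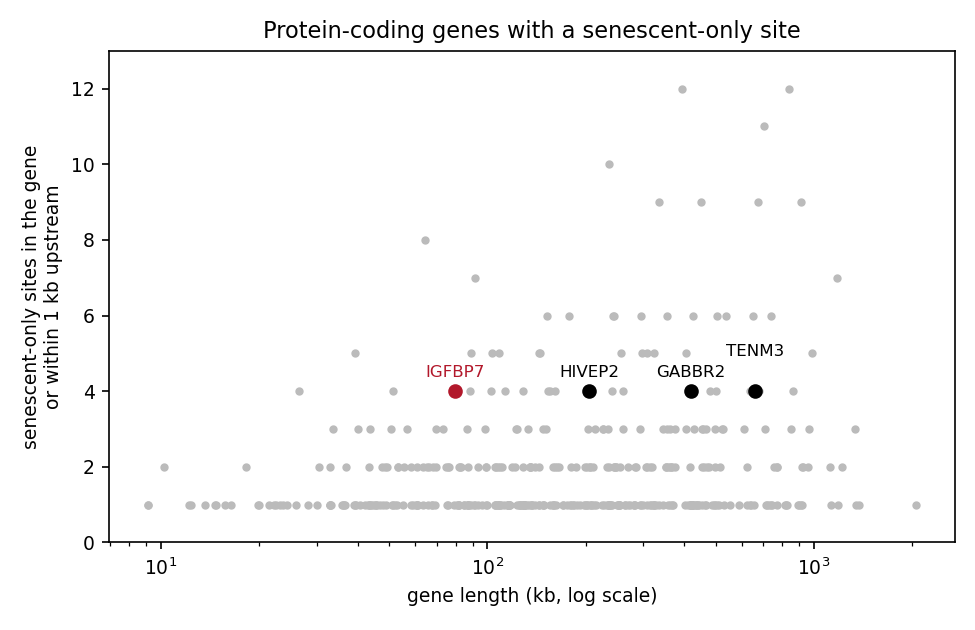
Senescent-only sites per gene (y axis) against gene length in kb (x axis, log scale) for the 411 protein-coding genes with at least 1 such site (grey), with IGFBP7 in red and the 3 genes closest to it in black. IGFBP7, at 79.6 kb, lies toward the short end of the genes with 4 sites or more.

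The genes with the most similar pattern were those with 4 senescent-only and 0 proliferating-only sites whose summed reads in senescent cells were closest to the 115 of IGFBP7. They were HIVEP2, a zinc-finger transcription factor gene, with 116 reads, GABBR2, a subunit of the GABA-B receptor, with 137, and TENM3, a teneurin adhesion receptor, with 140. The likeness covers 2 states and says nothing beyond these sums. All 3 were longer, at 205.2, 420.8 and 659 kb. Reads per site in senescent cells ran from 8 to 52 in IGFBP7, 3 to 75 in HIVEP2, 8 to 85 in GABBR2 and 9 to 48 in TENM3. Their highest folds were 296.3, 755.7 and 1576, and their sites lay from 53.6% to 95.7%, 79.6% to 89.8% and 59.2% to 70% of gene length.

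Within its own pathway, IGFBP7 was alone in the lists. For the insulin-like growth factor axis 41 genes were listed. They were ligands, receptors and adaptors, binding proteins, the proteases that cleave them and other proteins with the same domain. The list also held STC1, STC2, CD93 and IGF2BP1 to IGF2BP3. IGFBP7, itself chosen for its sites, was the 1 gene of the 41 with a senescent-only site (2.44%, beside 2.04% of all coding genes). A proliferating-only site was held by 0 of them (beside 1.09% of all coding genes). The ligand genes IGF1 and IGF2 and the receptor genes IGF1R, IGF2R and INSR held 0 sites of either list. The classical binding proteins IGFBP1 to IGFBP6, which carry the growth factors in blood and tissue, held 0 as well, and at 4.91 to 31.6 kb their genes are shorter than that of IGFBP7. Of the 41 genes, 12 were as long as IGFBP7 or longer. A share that rests on IGFBP7 alone, and is this close to the background, says nothing particular about the pathway. A gene without a listed site may still be transcribed in either state, from starts that both states use.

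Of 59 secreted factors of senescence, 2 held a senescent-only site (3.39%, beside 2.04% of all coding genes) and 0 a proliferating-only site (beside 1.09%). One of the 2 is IGFBP7 itself, chosen for its sites, so the count says nothing particular about these factors. The other gene was TGFB2, a ligand of the TGF-β family, with sites of 41 reads (fold 1346) and 17 reads (fold 559) in senescent cells and 0 in proliferating cells. Like those of IGFBP7 the TGFB2 sites lay late in the gene, at 77.0% and 81.1% of its 99.3 kb. The sites of HIVEP2, GABBR2 and TENM3 lay past the midpoint of their genes as well, so late position does not set these 2 genes apart. Only 2 of the 59 genes were as long as IGFBP7 or longer, TGFB2 among them, against a median length of 12.4 kb. Among markers of cell identity, 1 of 10 fibroblast genes held a site (PDGFRA, with 10 reads in senescent cells, against 0 in proliferating cells), while 0 of the 9 found in the annotation for epithelium, endothelium and leukocytes did. With 2.04% of all coding genes holding such a site, counts of 1 and 0 in lists this short do not set the markers apart. A list of start sites holds no expression levels, so the labelled cell type could not be checked from it.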

How the data were processed

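Run-on libraries were made from 8 samples in 4 groups, and 4 site lists were deposited, of which 2 are distinct; each is also deposited, with identical content, for replicate 1 of a PRO-cap group. The deposited value is a fold, a linear ratio of one state over the other, computed by the authors; its direction was taken from the list's name. The submitters' processing notes list HOMER, bedtools 2.27.1-65, cutadapt 2.10, SAMtools 1.1 and BWA 0.7.10 without saying what each did, and hg19. The calling of sites, the libraries used for it, any pooling and the depth of each library are not given in the sources used here.

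Whole reads were decoded from the folds within 1e-06 of a read. All 849 and 400 folds were matched, each by 1 pair of reads with up to 100 reads of the other state tried. The decoding was tested on data simulated with the same formula, so that test cannot show that a step is 1 read. If both states were scaled to 1 total, senescent data were 1.2 times as deep. Sequence was read from GRCh37, which has the coordinates of hg19, and genes from GENCODE 44 lifted to it. A gene held a site whose midpoint lay in its span or within 1 kb upstream. Python 3.11.15, numpy 2.4.6 and scipy 1.17.1 were used. No test was run, since the lists chose the gene and hold no replicates. IGFBP7, both lists of genes and the rule on which genes are named (members of the lists with a site, overlapping and neighbouring genes, and the 3 most alike) were chosen with earlier results of these data known. The marker PECAM1 was not found in the annotation. Hosts of the nearest sites outside IGFBP7 were named after their values were seen.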

Additional observations from a re-analysis of the deposited data

How the results depend on the processing

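Over 12 results, 31 of 36 alternatives left the value within 1.5 times and 5 did not. Changes of flank, of overlap and of distance to a start could not move the counts of IGFBP7 sites. All 4 sites lay well inside the gene and far from any annotated start, and no listed site lay just outside the gene. The number of IGFBP7 sites was 4 with no upstream flank, with 5 kb, with coding transcripts alone or by any overlap, and 3 with a fold of at least 100 or no read in proliferating cells. It fell to 2 with at least 10 reads in senescent cells, and was also 2 when overlapping sites were then counted once, an alternative chosen after seeing the data. The median fold of 279.9 dropped to 30.65 with a pseudocount of 10 and 7.75 with one of 100, in scaled units, as the added amount sets a fold over 0 reads. The AP-1 motif was present at 2 sites in 500 bases and at 0 in 200. No paired analysis was possible because a site has 1 fold and no value for any single library, and no replicate could be left out. Depth limits sites 1 and 4, at 8 and 9 reads in senescent cells, where the exact interval of the ratio began at 1.42 and 1.65. These limits make no allowance for the choice of sites by their fold.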
